A study of Mus musculus with 7 samples.

Results

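The genes described here are 10 uptake receptors of dendritic cells and macrophages: the C-type lectins Clec7a, Clec4e, Clec4d, Clec4n, Clec10a, Cd209a, Mrc1 and Ly75, and the scavenger receptors Msr1 and Cd36. They were chosen by name, and every probe set annotated to 1 of them alone was taken, which gave 17 probe sets for all 10 genes, out of 20379 probe sets that name 1 gene (12393 genes). Expression was measured on 7 Affymetrix Mouse430A arrays of CD11c-positive spleen cells, enriched with magnetic beads on day 7 after an allogeneic hematopoietic stem cell transplant, that is, a transplant from a genetically different donor. The groups were 3 arrays labelled Atg16L1 hypomorphic and 4 labelled WT, all with the C57BL/6J background, with ages of 8 weeks in the design text and 9 weeks in the sample protocol. Atg16l1 encodes a protein needed to couple LC3 to autophagosome membranes, and a hypomorphic allele has reduced, not absent, function. The labels leave unsaid which side of the transplant, host or graft, carried the genotype, which allele it was, and whether each array stands for its own animal. The p-values therefore describe the spread among these 7 samples, which may be technical.

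C-type lectin receptors bind sugars on microbes, dying cells and self glycoproteins through a carbohydrate-recognition fold. Some of them, such as Dectin-1, Dectin-2 and Mincle, signal through Syk and Card9, while others, such as the mannose receptor and DEC-205, mainly carry their cargo into the endocytic pathway. Scavenger receptors take up modified lipoproteins, lipids and apoptotic cells, and in the spleen both families are used by dendritic cells, monocytes and several kinds of resident macrophages.

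Values were deposited as log2, and the median of an array was between 5.46 and 5.53. Values of 1 probe set can be compared between arrays, but probe sets differ in how they bind, so a higher level of 1 probe set than another does not mean more transcript. The array median serves only as a rough mark of dim probe sets, and gaps between probe sets of a gene are compared only between arrays. Atg16l1 read 6.86, 6.76 and 6.94 on the hypomorph arrays and 7.42, 7.33, 7.26 and 7.20 on the wild-type arrays, without overlap between the groups; whether this probe set lies in the altered part of the gene is not known here. Itgax, which encodes CD11c, averaged 8.29 ± 0.27 in the hypomorph and 8.24 ± 0.17 in wild type (SD, n = 3 and 4), and the dendritic cell growth factor receptor gene Flt3 averaged 6.61 ± 0.25 and 6.69 ± 0.30 in the same order. The dendritic cell factor Zbtb46, at 5.12 ± 0.36 in the hypomorph and 5.45 ± 0.21 in wild type, lay close to the array medians. All 8 measured red pulp macrophage markers and 9 of 11 neutrophil markers were above the array median on every array. In bulk samples, fewer cells of a type and less RNA per cell cannot be told apart.

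At a limma adjusted p under 0.05, calculated over all 22625 tested probe sets, 0 of the 17 were called, as were 0% of all. The adjusted p of the members ran from 0.644 to 0.998. At an unadjusted p under 0.05 there were 3 of 17, all with higher means in the hypomorph, namely 2 of the 4 of Msr1 and that of Mrc1, where 4.35% of all tested probe sets were higher and 3.34% lower at this level, 7.69% together. That count of 3 was 7, in either direction, with the replicate number as a block, where 945 of all 22625 probe sets were higher and 917 lower. The directions of the 7 were not counted, and the block leaves few degrees of freedom. Wild-type replicate 4 has no hypomorph array of its number, so it does not enter that comparison. Without wild-type replicates 1 and 3 the count was 1, where 1008 of all probe sets were higher and 649 lower. The groups did not overlap for 2 of the 17 (Msr1 and Mrc1 again), both higher in the hypomorph, against 3.07% of all probe sets higher and 2.50% lower without overlap, 5.57% together. The log2 change was above 0 for 14 of 17 probe sets, against 50.7% of all. With the probe set of highest mean standing for each gene, 8 of 10 genes were above 0, with a median log2 change of 0.25 (0.00 over all probe sets). Leaving out wild-type replicate 4 gave a median of 0.13, and leaving out wild-type replicate 1 or hypomorph replicate 3 gave 0.14 in each case. Without wild-type replicates 1 and 3, the arrays lowest in red pulp macrophage markers, it was 0.0038, with 5 of 10 genes above 0. This omission, used again below, was added after the data were seen. Wild-type replicate 1 was the lowest array for 11 of the 17 probe sets (the share over all probe sets was not counted). Leaving it out was therefore likely to lower the median, and the value does not separate macrophage content from genotype. The text therefore gives values and intervals, and no member is called different.

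**Figure D1:**
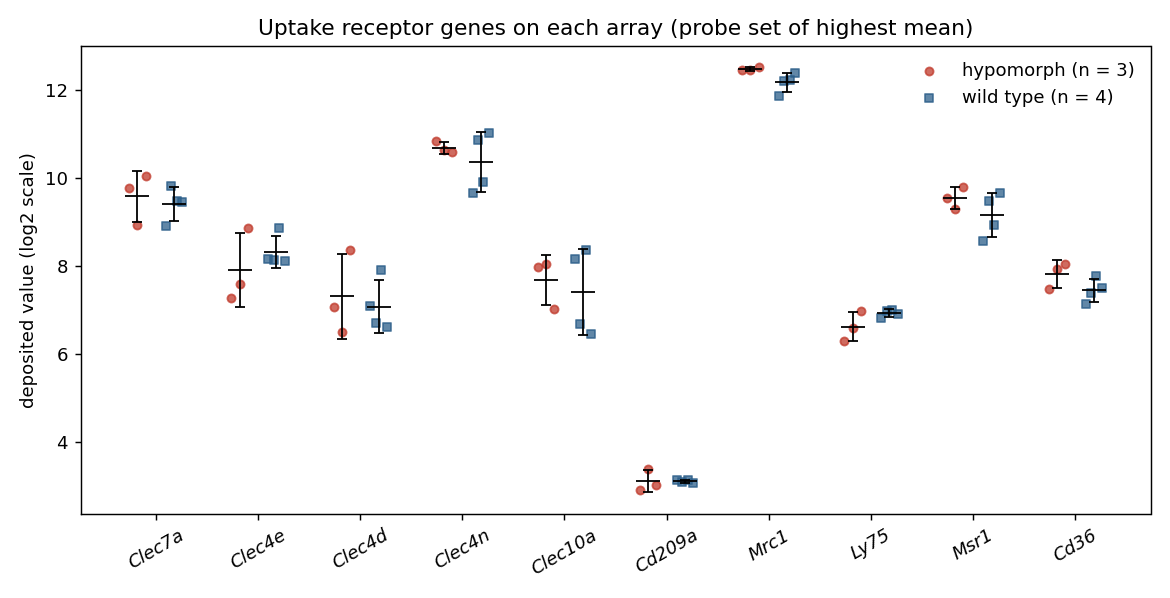
Deposited log2 value of each of the 10 genes (x axis, probe set of highest mean) on the 3 hypomorph arrays (circles, left of each pair) and the 4 wild-type arrays (squares, right); bars are means with SD. The groups overlap for every gene except Mrc1, whose 3 hypomorph arrays sit between 12.46 and 12.53, just above the highest wild-type array at 12.40.

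**Figure D2:**
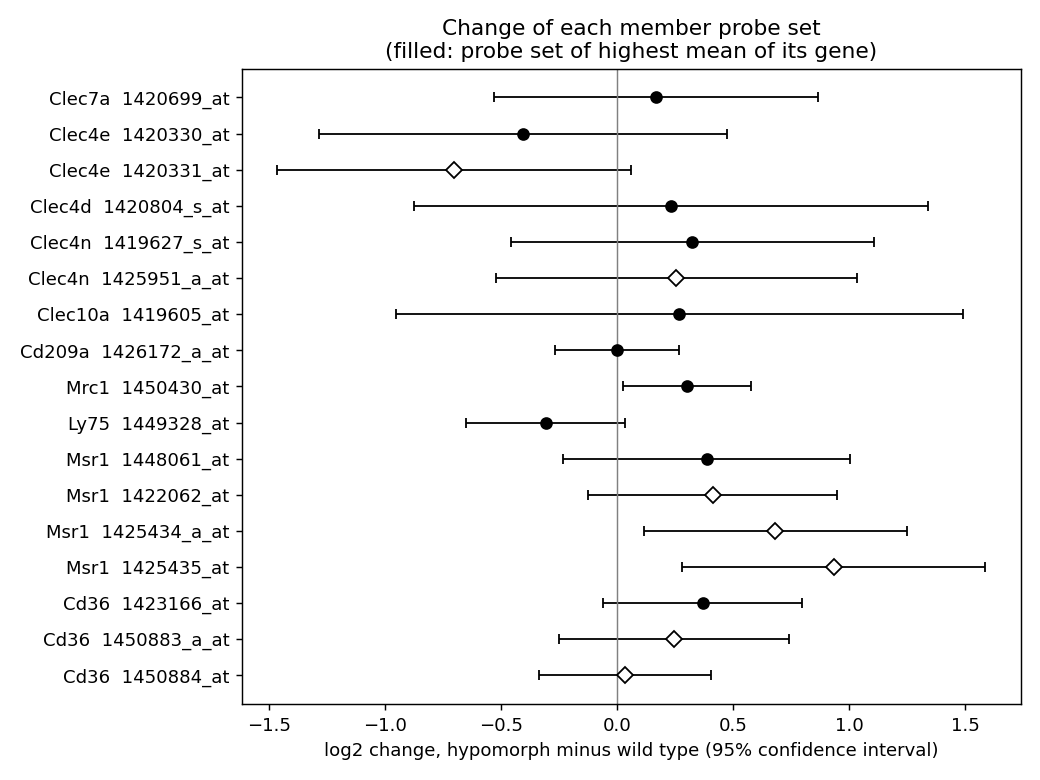
Log2 change (hypomorph minus wild type, x axis) of all 17 probe sets with 95% confidence intervals from the limma fit; filled circles mark the probe set of highest mean of each gene and open diamonds the others. The interval includes 0 for 14 of the 17, and the exceptions are Mrc1 and the Msr1 probe sets 1425434_a_at and 1425435_at.

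Of the scavenger receptors, Msr1 encodes SR-A1 (CD204), a trimeric macrophage receptor for modified lipoproteins and bacterial surface molecules. Its probe set 1425435_at read 7.58, 6.30 and 6.95 in the hypomorph and 5.68, 6.19, 6.17 and 5.99 in wild type. The groups did not overlap, although hypomorph replicate 2 exceeded the highest wild-type array only narrowly. The log2 change was 0.93 (95% confidence interval 0.28 to 1.59), a 1.91-fold higher mean, with an exact two-sided permutation p = 0.0286, the smallest that 35 splits of 7 arrays allow, and a limma adjusted p = 0.644. Leaving out single arrays gave changes between 0.62 (hypomorph replicate 1 out) and 1.26 (hypomorph replicate 2 out).

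The 4 Msr1 probe sets did not give the same size of change. Probe set 1425434_a_at read 8.06, 7.42 and 7.93 in the hypomorph and 6.60, 7.31, 7.03 and 7.55 in wild type, and wild-type replicate 4 lay above hypomorph replicate 2. Its log2 change was 0.68 (0.12 to 1.25). Probe set 1448061_at, the one of highest mean, read 9.56, 9.30 and 9.79 in the hypomorph and 8.58, 9.48, 8.93 and 9.68 in wild type, a change of 0.39 (-0.23 to 1.01), and 1422062_at had 0.41 (-0.12 to 0.95). In these last probe sets wild-type replicates 1 and 3 lay below the other 5 arrays, and without those replicates the changes were -0.02 and 0.05, against 0.37 for 1425434_a_at and 0.85 for 1425435_at. Both probe sets with the larger change are annotated to the same transcript record, and which Msr1 transcripts each probe set detects was not analysed here. Taken within each array, 1425434_a_at minus 1448061_at was -1.50, -1.88 and -1.86 in the hypomorph and -1.98, -2.17, -1.90 and -2.12 in wild type. The gap was narrower on all 3 hypomorph arrays than on any wild-type array, by 0.30 on average, though hypomorph replicates 2 and 3 and wild-type replicate 3 nearly met. A gap of Cd36, 1450884_at minus 1423166_at, also separated the groups, so separation is not particular to Msr1. That gap was wider in the hypomorph, at -3.62 on average against -3.29 in wild type. Its probe set 1450884_at lay under the median of each array. The other Cd36 gap and those of Clec4e and Clec4n overlapped. For Msr1 1425435_at the gap to 1448061_at was -1.99, -3.01 and -2.85 in the hypomorph and -2.90, -3.29, -2.77 and -3.69 in wild type, with overlap. For 1422062_at it differed by only 0.02 between the groups.

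**Figure D3:**
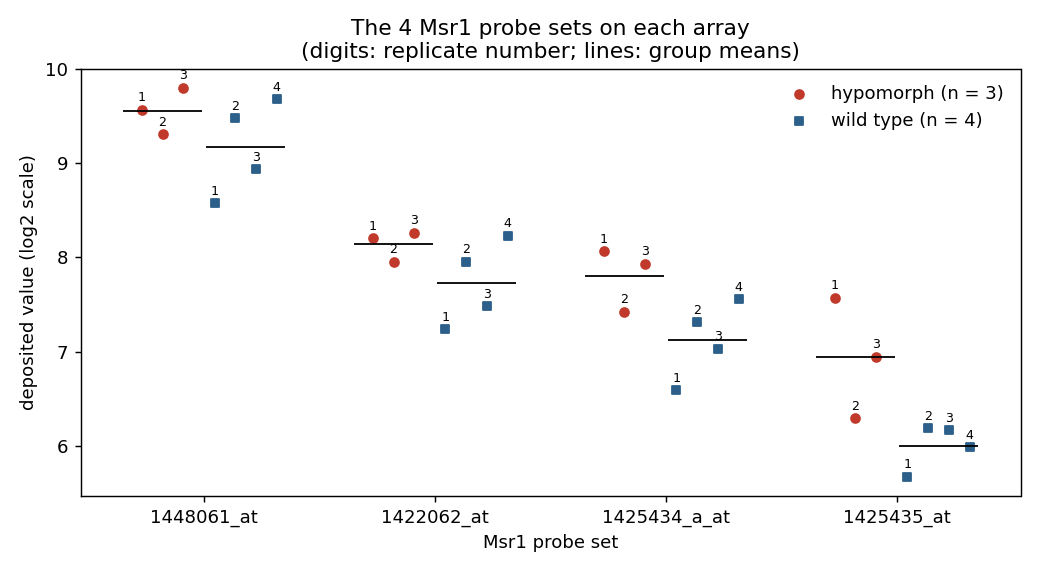
Deposited log2 value (y axis) of the 4 Msr1 probe sets (x axis) on the 3 hypomorph arrays (circles) and 4 wild-type arrays (squares), with replicate numbers and lines at the group means. Wild-type replicates 1 and 3 are the lowest arrays for 1448061_at and 1422062_at, and in 1425435_at all hypomorph arrays, from 6.30 to 7.58, lie above all wild-type arrays.

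Cd36 encodes a receptor for long-chain fatty acids, oxidized lipoproteins and apoptotic cells that many cell types share. Its probe set of highest mean, 1423166_at, read 7.48, 7.93 and 8.06 in the hypomorph and 7.14, 7.40, 7.78 and 7.50 in wild type. The highest readings were from hypomorph replicates 2 and 3, and hypomorph replicate 1 lay among the wild-type arrays. This gave a log2 change of 0.37 (-0.06 to 0.80), or 1.29-fold, and 0.54 without hypomorph replicate 1. The second probe set, 1450883_a_at, had 0.25 (-0.25 to 0.74), with 0.12 without hypomorph replicate 2 and 0.46 without hypomorph replicate 1. The third, 1450884_at, read only 3.91 to 4.54, under the median of each array, and had a change of 0.04 (-0.34 to 0.41). Platelets and endothelial cells also carry CD36. In the lists of their markers, 3 of 8 measured platelet genes and 10 of 12 endothelial and stromal genes were above 0. The summed linear level ran from 274 to 318 in the hypomorph and 283 to 305 in wild type for the platelet genes, and from 621 to 802 and 441 to 685 for the endothelial and stromal genes in the same order. The part of these cells in the Cd36 values was not tested.

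Of the receptors that mainly carry cargo inward, Mrc1 encodes the mannose receptor (CD206), which clears mannose-bearing glycoproteins and is widely used as a macrophage marker. It read 12.47, 12.46 and 12.53 in the hypomorph and 11.88, 12.21, 12.24 and 12.40 in wild type. The hypomorph arrays were close together, and the wild-type arrays spread downward to replicate 1. The log2 change was 0.30 (0.03 to 0.58), a 1.23-fold higher mean, with an exact permutation p = 0.0571 and a limma adjusted p = 0.644. Leaving out wild-type replicate 1 gave 0.20, leaving out replicate 4 gave 0.38, and leaving out replicates 1 and 3 together gave 0.18.

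Ly75 encodes DEC-205, an endocytic receptor of CD8-lineage dendritic cells and thymic epithelium. It read 6.31, 6.59 and 6.97 in the hypomorph and 6.82, 6.98, 7.02 and 6.90 in wild type. Hypomorph replicates 1 and 2 were below every wild-type array, and replicate 3 was not. Its log2 change was -0.31 (-0.65 to 0.04), with an exact permutation p = 0.114 and a limma adjusted p = 0.646. Leaving out hypomorph replicate 1 gave -0.15 and leaving out replicate 3 gave -0.48. The markers of CD8-lineage dendritic cells (the cDC1 list) had a median change of 0.05, with 7 of 9 above 0, among them Cadm1 at 0.27, while Cd24a (-0.55) and Irf8 (-0.13) were below 0. Their list median was at -0.02, 0.02 and 0.01 on the hypomorph arrays and -0.33, -0.02, 0.02 and 0.31 on the wild-type arrays. Their summed linear level ran from 7279 to 9425 in the hypomorph and 8640 to 10039 in wild type, and none lay below the lower quartile on all arrays. The part of these cells in the Ly75 values was not tested.

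Cd209a encodes a mouse homologue of the human adhesion and pathogen receptor DC-SIGN. Its probe set read 2.90, 3.39 and 3.03 in the hypomorph and 3.14, 3.09, 3.13 and 3.07 in wild type. On 6 of 7 arrays it lay below the lower quartile of all probe sets (3.31 to 3.39), where the array gives little information on a transcript, and the change of 0.00 (-0.27 to 0.27) is read with that limit.

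Clec4n, Clec4d and Clec4e are consecutive protein-coding genes in the RefSeq table of GRCm38.p6. They encode Dectin-2, a receptor for fungal mannans, MCL, a receptor for mycobacterial glycolipids, and Mincle, which binds mycobacterial cord factor and a signal released by dead cells. The promoters of the neighbours Clec4d and Clec4e are shown, with that of Mrc1 as a member of another chromosome. The RefSeq sequences run from 250 bases before to 50 after the annotated start, on the strand of the gene, in build GRCm38.p6. They lie at chr6:123261857-123262156 (plus strand) for Clec4d, chr6:123289822-123290121 (minus strand) for Clec4e and chr2:14229164-14229463 (plus strand) for Mrc1. Capitals mark GAGGAA or its reverse complement TTCCTC, letters of the sites bound by the myeloid transcription factor PU.1.
Clec4d: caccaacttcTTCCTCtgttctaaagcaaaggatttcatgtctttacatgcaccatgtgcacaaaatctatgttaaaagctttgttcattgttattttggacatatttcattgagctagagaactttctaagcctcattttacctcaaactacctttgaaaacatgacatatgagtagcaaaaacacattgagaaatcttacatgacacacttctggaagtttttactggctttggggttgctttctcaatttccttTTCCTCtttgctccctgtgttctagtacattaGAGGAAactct
Clec4e: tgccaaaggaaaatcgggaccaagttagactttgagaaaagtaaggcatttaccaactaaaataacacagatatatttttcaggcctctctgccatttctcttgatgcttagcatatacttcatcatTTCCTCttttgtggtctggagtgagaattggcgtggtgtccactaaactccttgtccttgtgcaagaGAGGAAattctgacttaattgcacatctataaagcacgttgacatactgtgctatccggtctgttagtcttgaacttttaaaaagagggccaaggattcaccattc
Mrc1: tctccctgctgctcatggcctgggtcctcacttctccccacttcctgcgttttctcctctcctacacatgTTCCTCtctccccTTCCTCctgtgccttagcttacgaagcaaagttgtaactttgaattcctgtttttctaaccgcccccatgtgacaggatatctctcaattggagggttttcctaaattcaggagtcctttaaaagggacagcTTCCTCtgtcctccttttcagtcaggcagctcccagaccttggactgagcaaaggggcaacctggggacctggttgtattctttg
Both strands were searched for 5 motifs in the 7 member genes that matched the promoter table. GAGGAA occurred in 4 of the 7 (Clec4d with 3 matches, Clec4e with 2, Mrc1 with 3 and Clec7a with 1) and in 28.3% of all 32851 promoters of this length. The promoters shown are those with the most GAGGAA matches, and those of Ly75, Cd36 and Cd209a had 0. None of the GAGGAA matches overlapped a match of another motif searched. TATAAA occurred in 3 of 7 (Clec4e, Clec7a and Cd209a) against 13.6% of all, TTNNGNAA (a loose C/EBP pattern) in 6 of 7 against 40.7%, a loose NF-kB pattern in 3 of 7 against 50.8%, and TGANTCA (AP-1) in 0 of 7 against 7.81%. A match describes the letters only.

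Clec4e had the lowest changes of the 10 genes. Its probe set 1420330_at read 7.28, 7.61 and 8.88 in the hypomorph and 8.17, 8.13, 8.87 and 8.13 in wild type. Hypomorph replicates 1 and 2 were below every wild-type array, while hypomorph replicate 3 and wild-type replicate 3 stood together about as high as each other. The log2 change was -0.41 (-1.29 to 0.47), and the second probe set, 1420331_at, had -0.70 (-1.46 to 0.06), a 1.62-fold lower mean, with a limma adjusted p = 0.644. Both stayed negative with any 1 array left out. Leaving out hypomorph replicate 3 gave -0.88 and -1.11. The first was closest to 0, at -0.08, with hypomorph replicate 1 left out, and the second, at -0.46, with replicate 2 left out.

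Clec4d read 7.08, 6.50 and 8.37 in the hypomorph and 7.10, 6.71, 7.92 and 6.61 in wild type, so the same arrays, hypomorph replicate 3 and wild-type replicate 3, were the highest of their groups. Its log2 change was 0.23 (-0.88 to 1.34), and -0.29 without hypomorph replicate 3, against 0.64 without hypomorph replicate 2. The name of its only probe set ends in _s_at, which Affymetrix gives to probe sets that may match more than 1 gene, as does that of 1 of the 2 Clec4n probe sets, so these values are less certain. Markers of neutrophils and monocytes, which also express these receptors, were at -0.49, -0.32 and 0.22 (neutrophil list median, relative to the mean of 7 arrays) and -0.40, -0.22 and 0.22 (monocyte list) in the hypomorph, and at 0.08, 0.14, 0.26 and 0.26 and 0.03, 0.07, 0.21 and 0.26 in wild type. Of these markers, 0 of 11 and 1 of 9 had a change above 0, their summed linear level ran from 39849 to 68784 in the hypomorph and 62223 to 69583 in wild type for neutrophils, and from 26616 to 38162 and 33331 to 36922 for monocytes, and none was below the lower quartile on all arrays. Their part in the Clec4e and Clec4d values was not tested.

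Clec4n was read by 2 probe sets with similar changes. Probe set 1419627_s_at read 10.85, 10.65 and 10.59 in the hypomorph and 9.66, 10.86, 9.92 and 11.04 in wild type. The hypomorph arrays lay within 0.26 of each other, and the wild-type arrays fell into a low pair, replicates 1 and 3, and a high pair, replicates 2 and 4. The log2 changes were 0.33 (-0.46 to 1.11) and 0.26 for 1425951_a_at (-0.52 to 1.03). With wild-type replicate 1 left out they were 0.09 and 0.02, with replicate 4 left out 0.55 and 0.48, and with replicates 1 and 3 left out -0.26 and -0.31, so the sign rests on the low pair.

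Clec7a encodes Dectin-1, the receptor for fungal beta-glucans, and lies on the same chromosome, 108 protein-coding genes from Clec4n. It read 9.79, 8.93 and 10.05 in the hypomorph and 8.91, 9.84, 9.49 and 9.45 in wild type, with hypomorph replicate 2 and wild-type replicate 1 low. Dectin-1 thus had a log2 change of 0.17 (-0.53 to 0.87), with -0.06 without hypomorph replicate 3 and 0.50 without hypomorph replicate 2.

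Clec10a encodes a galactose-type lectin (MGL1). It read 7.98, 8.05 and 7.03 in the hypomorph and 8.16, 6.68, 8.36 and 6.47 in wild type. Its wild-type arrays split into the same pairs as those of Clec4n but the other way round, with replicates 1 and 3 high and 2 and 4 low. Over all arrays its log2 change was 0.27 (-0.95 to 1.49), and leaving out wild-type replicate 4 gave -0.05, hypomorph replicate 3 gave 0.60, and wild-type replicates 1 and 3 together gave 1.11. Among the marker lists, the T cell medians ran alongside, at 0.07, 0.24 and -0.09 in the hypomorph and 0.46, -0.41, 0.11 and -0.30 in wild type, with 7 of 9 markers above 0 and a summed linear level of 3480 to 4258 and 2577 to 5114 in the same order. So did the NK and cytotoxic cell list, at -0.12, 0.15 and -0.14 in the hypomorph and 0.34, -0.20, 0.04 and -0.11 in wild type. Of its markers 4 of 9 were above 0, with a summed level of 13502 to 15586 and 12370 to 17526. In wild type the plasmacytoid dendritic cell list also split this way, at 0.09, -0.23, 0.23 and -0.06. The cDC2 dendritic cell list did not, at -0.15, 0.10 and 0.18 in the hypomorph and -0.05, -0.09, -0.04 and -0.03 in wild type. Red pulp macrophage markers ran the other way in wild type, at -0.68, 0.40, -0.41 and 0.34. The part of any of these cells in the Clec10a values was not tested.

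Macrophage markers were low on wild-type replicates 1 and 3, as were Clec4n and the Msr1 probe sets 1448061_at and 1422062_at, while Mrc1 shared only the low value of replicate 1. The red pulp macrophage list, which shares no gene with the 10 receptors, had medians of 0.18, 0.12 and 0.19 in the hypomorph and -0.68, 0.40, -0.41 and 0.34 in wild type, relative to the mean of all 7 arrays. The marginal zone macrophage list had 0.39, 0.02 and 0.20 in the hypomorph and -0.55, 0.05, -0.24 and 0.18 in wild type. Of the measured red pulp markers 7 of 8 were above 0, with a summed linear level of 20761 to 23644 in the hypomorph and 14173 to 24344 in wild type, and none lay below the lower quartile. Of the marginal zone markers 7 of 7 were above 0, with 13696 to 18824 and 9455 to 16337, and 1, Cd209b, lay below the lower quartile on all arrays. Of this list, Marco, Nr1h3, C1qa, C1qb, C1qc and Cd209b also belong to the related gene lists below, so those lists are not separate from it. Vcam1 and Spic, defining genes of red pulp macrophages, read 13.09 ± 0.09 and 11.43 ± 0.17 in the hypomorph and 12.85 ± 0.17 and 10.96 ± 0.47 in wild type (SD, n = 3 and 4). The part of macrophage RNA in the receptor values was not tested. Wild-type replicate 1 was the lowest array for 11 of the 17 member probe sets, and hypomorph replicate 3 the highest for 7. The 11 were all those of Msr1, Cd36 and Clec4n with those of Clec7a and Mrc1, so several read the same gene. The shares over all probe sets were not counted, so whether these counts are particular to the receptors is not known.

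**Figure D4:**
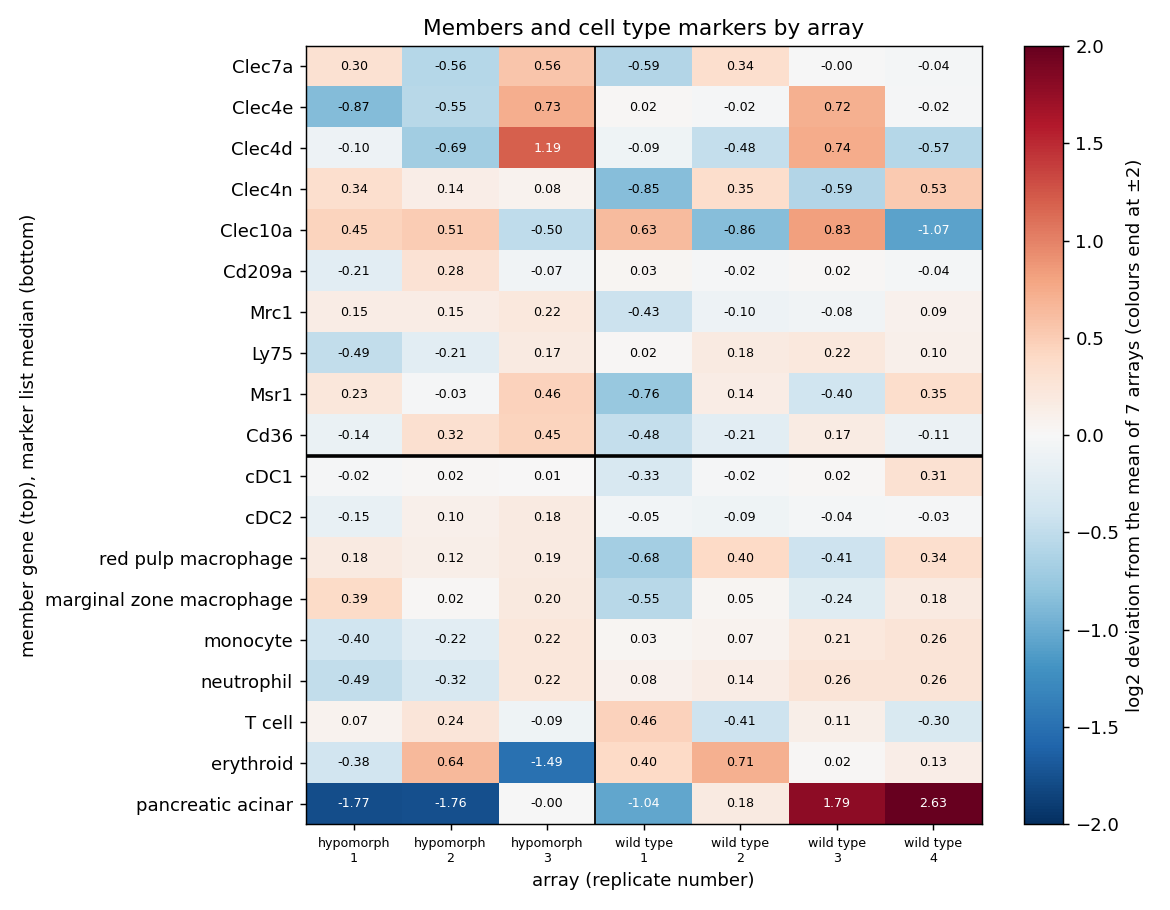
Log2 deviation of each member gene (top, probe set of highest mean) and of the median of cell type marker lists (bottom) from the mean of the 7 arrays, for 3 hypomorph arrays (left) and 4 wild-type arrays (right); colours end at the stated limits and each cell gives its value. Clec4n, Msr1 and Mrc1 are low on wild-type replicate 1, as is the red pulp macrophage list at -0.68, and Clec4e is low on hypomorph replicates 1 and 2, as is the neutrophil list at -0.49 and -0.32.

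Other genes of the same families were compared as lists, and 0 of their members passed the adjusted threshold in limma. Of 33 further C-type lectin receptors, 24 were measured by a probe set of their own, with 13 above 0 and 11 below and a median change of 0.01. At an unadjusted p under 0.05 there were 0 higher and 1 lower, Clec5a, which encodes a DAP12-coupled myeloid receptor and read 6.58 ± 0.57 in the hypomorph and 7.26 ± 0.35 in wild type, a log2 change of -0.68. Clec11a, a secreted growth factor, had 0.16, Clec3b (tetranectin) 0.13 and the inhibitory B cell receptor gene Cd72 -0.34. Among these 24, 7 lay below the lower quartile on all arrays, 5 of them relatives of Cd209a.

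Of 20 further scavenger receptors, 16 were measured, with 13 above 0, a median of 0.17 (0.10 with wild-type replicate 1 left out, 0.0090 with replicates 1 and 3 left out) and 0 at an unadjusted p under 0.05 in either direction. Cd14, the co-receptor for bacterial lipopolysaccharide, read 11.98 ± 0.27 in the hypomorph and 11.29 ± 0.69 in wild type, a log2 change of 0.68. Stab1, which encodes the macrophage and endothelial receptor stabilin-1, had 0.41, the lysosomal membrane protein gene Scarb2 had 0.24, and Scara3 had 0.10 with values below the lower quartile. Receptors and bridging molecules for dying cells were above 0 in 14 of 18 cases, with a median of 0.23, which was 0.05 with wild-type replicate 1 left out and 0.04 with replicates 1 and 3 left out. In that list Cd300lf, a phosphatidylserine receptor, had 0.43, the complement component gene C1qc 0.39, the receptor kinase gene Tyro3 0.18 (-0.06 with its other probe set) and the bridging protein gene Mfge8 -0.21.

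Of 21 genes that carry lectin receptor signals inward, 17 were measured, with 14 above 0 and a median of 0.06, which ran from 0.01 to 0.13 when single arrays were left out. Fcer1g, the ITAM chain shared by Dectin-2 and Mincle, read 12.05 ± 0.19 in the hypomorph and 11.77 ± 0.17 in wild type, a log2 change of 0.28. Rel had 0.29, the kinase gene Map3k14 0.20 and the phosphatase gene Inpp5d 0.15. Of 19 genes of lipid handling downstream of scavenger uptake, 16 were measured, with 10 above 0 and a median of 0.10, which was 0.0078 with wild-type replicate 1 left out and -0.02 with replicates 1 and 3 left out. The cholesterol exporter gene Abca1 read 10.69 ± 0.51 in the hypomorph and 9.95 ± 0.36 in wild type, a change of 0.73, and its other probe sets ran from 0.58 to 0.66. Npc2, which moves cholesterol out of lysosomes, read 11.72 ± 0.13 and 11.46 ± 0.06 in the same order without overlap, a change of 0.26 and 0.28 with its other probe set. Apoe had 0.25 and Fyn 0.20. These 2 genes, Abca1 and Npc2, were the only ones of the lipid list at an unadjusted p under 0.05, and their limma adjusted p was 0.644.

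**Figure D5:**
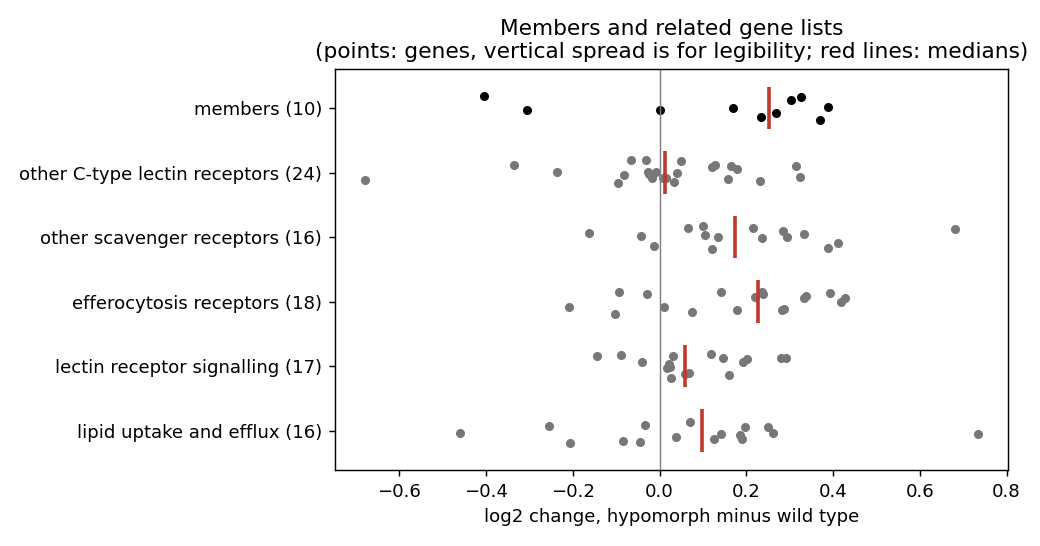
Log2 change (hypomorph minus wild type, x axis) of each of the 10 receptor genes and of each measured gene of 5 related lists (rows, number of genes in brackets); red lines are medians. The medians of the receptor genes, the other scavenger receptors and the efferocytosis receptors are 0.25, 0.17 and 0.23, and that of the other C-type lectins is 0.01.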

How the data were processed

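Each of the 7 samples (100 ng of RNA, per the labels) was hybridized to its own array. Values deposited by the authors are log2 intensities of probe sets and were used without further normalization. Affymetrix Power Tools is named in the submitters' processing notes, while its version, the summary method, background correction and normalization were not given in the sources used here. Precision is limited by the number of arrays.

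After 64 controls and 1 probe set without values were left out of 22690, 22625 remained. Gene names came from the annotation of the platform, updated by Entrez identifier in a RefSeq table of GRCm38.p6 (20350 of 20379 probe sets matched). A further 691 probe sets name several genes and 1555 none.

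The genotypes were compared by limma (version 3.58.1, under R 4.3.3) with lmFit and eBayes on the group means, and p-values were adjusted by Benjamini-Hochberg across the 22625 probe sets. Single probe sets were also compared with an exact two-sided permutation test over the 35 splits of the arrays. In 5 runs on simulated data, each with 22625 probe sets and arrays in groups of 3 and 4, limma recovered 42.2% of probe sets with a log2 change of 0.5, 83.1% with 1 and 97.3% with 2. False calls were 4.29% of all calls, with noise drawn separately for each probe set. The changed probe sets were drawn at random, so these shares are averages over quiet and noisy probe sets. They do not give the recovery for the members, several of which varied widely (standard error 0.52 for Clec10a and 0.28 for Msr1 1425435_at).

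The members and lists were chosen with earlier results of these data known. All 10 members are named, and in each related list the up to 4 genes with the smallest p; Atg16l1 and marker genes serve as checks. Alternatives covered centring, quantile normalization, a level filter, trend and robust variances, array weights, the replicate block, 32 added on the linear scale, the mean over probe sets, and each array left out. Leaving out wild-type replicates 1 and 3, or 3 and 4 (the highest in pancreatic acinar transcripts), was added after seeing the data.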

Additional observations from a re-analysis of the deposited data

Results flagged for a closer look

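In 3 of 24 sets of values tested in the 4 wild-type arrays, 1 array stood apart from the other 3, and chance gives about 1 in 20. The first 2 were the probe sets of Clec4e. In 1420330_at wild-type replicate 3 read 8.87 against 8.13 to 8.17 on the others, a gap of 0.943 of the whole range, and in 1420331_at it read 7.13 against 6.40 to 6.51, with 0.859. These probe sets belong to 1 gene and so are not separate cases.

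For Itgax, the gene of the surface protein used for the sort, wild-type replicate 2 read 7.98 against 8.32 to 8.33 on the other wild-type arrays, a gap of 0.993 of the range. Hypomorph replicate 1 read 7.98 as well.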

How the results depend on the processing

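No member probe set passed the adjusted threshold in any of 16 settings (lowest limma adjusted p = 0.123), and 251 of 270 member values kept their sign. That tally was partly fixed in advance. The trend and robust settings and the level filter leave each change as it is, and centring shifts all changes alike. The replicate block gave the same changes as leaving out wild-type replicate 4. Over all probe sets the count past the threshold was 0 as reported, 3 with array weights, 5 with arrays centred on their median, 5 with probe sets above the median level, 5 with trend and robust settings, and 0 to 2 with single arrays left out; none of these was a member. With single arrays left out, the members' median change ran from 0.13 to 0.31 and the count of positive members from 6 to 8. Without the macrophage-poor wild-type replicates 1 and 3 the median was 0.0038 and the count 5. Member probe sets at a limma unadjusted p under 0.05 were then 1 (3 as reported), where 1008 of all probe sets were higher and 649 lower. The changes were -0.26 and -0.31 for Clec4n, -0.053 for Clec7a, -0.023 for Msr1 1448061_at and -0.024 for the lipid list median. Cd209a, near 0, was at -0.030 with array weights, -0.0042 without the acinar-rich wild-type replicates 3 and 4, -0.015 with quantile normalization and -0.010 with the replicate block, and Cd36 1450884_at was at -0.049 with array weights. With single arrays left out, Cd209a ran from -0.14 to 0.11, Cd36 1450884_at from -0.057 to 0.16, Clec10a from -0.047 to 0.60, Clec4d from -0.29 to 0.64, Clec7a from -0.061 to 0.50 and the median of the other C-type lectins from -0.017 to 0.041. Which causes lie behind these shifts was not tested. With the replicate block, which leaves wild-type replicate 4 without a partner, the members' median was 0.13, 6 members were positive and Clec10a was at -0.047. These are the values found with wild-type replicate 4 left out, not a separate result. There 7 member probe sets, in either direction, were at a limma unadjusted p under 0.05, with few degrees of freedom left. Of all 22625 probe sets 945 were higher and 917 lower at this level, and 0 passed the adjusted threshold. Deviations of same-numbered arrays correlated at 0.102, 0.0977 and 0.339. Only 1 of 3 hypomorph arrays correlated best with its own number, so the numbers were not used as pairs. The level filter removed Cd209a and Cd36 1450884_at, which lay below the array median on every array.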
